A study of Bos taurus with 12 samples.

Results

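Plasminogen activators, metalloproteinases and their inhibitors were examined in endometrium taken by biopsy from Simmental heifers in the cycle before they received an embryo. The set was chosen by gene symbol and holds 9 genes: the activators PLAT and PLAU, the receptor PLAUR, the matricellular protein THBS1, the inhibitors TIMP1, TIMP2 and TIMP3, and the proteases MMP2 and ADAMTS6. These genes have 17 of the 24016 probe sets on the bovine Affymetrix array, controls left out, and each of the 17 carries a single gene symbol. A probe set was taken as measured where 3 or more of the 12 arrays gave it a log2 value above 4, and 14 of the 17 met this, among 13449 on the whole array. The measured probe sets with 1 symbol stand for 6781 genes. All 9 genes have at least 1 measured probe set. The nearest to that limit were TIMP3 and ADAMTS6, each above 4 on 7 arrays, while the 3 probe sets left out (a pair of THBS1 and 1 of TIMP2) were above 4 on 0 arrays and reached at most 2.67.

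The 12 arrays form 4 groups of 3: NPd7 and NPd14 are biopsies of day 7 and day 14 from heifers that returned to heat after transfer and were not pregnant, and CDd7 and CDd14 are biopsies of the same days from heifers that went on to deliver a calf. Every biopsy came from a cycle without an embryo, and in both outcome groups the embryo transferred in the next cycle had itself been biopsied. Each array holds RNA of a pool of samples, so p-values measure the spread between pools only, which may be technical in part. The sources used here do not say how many heifers a pool holds, or whether a heifer entered pools of both days.

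Plasminogen activators cut plasminogen to plasmin, a protease that degrades fibrin and matrix proteins and can activate latent matrix metalloproteinases. The receptor PLAUR holds urokinase at the cell surface. Metalloproteinases of the MMP and ADAMTS families cut collagens and proteoglycans, and TIMPs bind and block them. In ruminants the conceptus attaches without deep invasion, and the uterine lining is remodelled through the cycle by these systems.

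Array medians lay between 4.89 and 5.06 on the log2 scale. Of 10 epithelial markers 9 were measured and of 11 stromal fibroblast markers also 9, while 0 of 7 smooth muscle and pericyte markers were, and of 7 endothelial markers CLDN5 alone was. Of the 4 uterine markers on the array, OXTR was measured, and HOXA10, ESR1 and PGR lay under the filter. The difference between the 3' and 5' control probe sets of GAPDH and EF1A, a sign of RNA integrity and labelling, was 1.38 ± 0.19 (SD, n = 3, log2) in NPd7 and 1.01 ± 0.22 in CDd7. At day 14 it was 1.71 ± 0.23 and 1.39 ± 0.07 in the same order. Added bacterial transcripts (3), whose RNA does not come from the biopsies, had the same order. At day 7 their 3' to 5' difference was 5.06 ± 0.15 for NP and 4.74 ± 0.07 for CD. The day 14 values were 5.38 ± 0.14 and 5.13 ± 0.12. On both kinds of control the CD mean was thus below NP on either day, and day 14 was above day 7 in either outcome. The part of these control differences in the results below was not tested.

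Changes between days in the calf delivery group were the most frequent among these genes: PLAT rose, and TIMP3, MMP2, ADAMTS6 and 2 of the 4 measured probe sets of THBS1 fell from CDd7 to CDd14. That is 6 of 14 probe sets past the threshold, 1 up and 5 down, a limma adjusted p under 0.05 over all 13449 probe sets. Over the whole array the same comparison called 24% (11.6% up and 12.4% down). Between outcomes at day 7, TIMP1 fell in CD on both of its probe sets, which makes 2 of 14 (0 up, 2 down) against 3.74% of the array (1.8% up and 1.94% down). Between outcomes at day 14 limma called 0 of 14, with 1 at an unadjusted p under 0.05, where the array had 0.0223% and 7.38%. Between days in NP limma called 0 of 14 as well, but 6 had an unadjusted p under 0.05, against 0.327% (0.275% up and 0.052% down) and 16.3% of the array. In CD between days and in CD against NP at day 7 the counts at an unadjusted p under 0.05 were 8 and 7 of 14, where the array had 39.3% and 30%.

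The size of the differences, whatever their direction, was larger among these probe sets than over the array in each comparison. The median absolute log2 fold change of the 14 was 0.92 at day 7 (0.31 over the array), 0.49 at day 14 (0.16), 0.76 between days in CD (0.38) and 0.94 between days in NP (0.22). The signed medians were 0.15, -0.42, 0.03 and -0.14 in the same order, with 8, 4, 7 and 5 of 14 values above 0. At day 14, where 10 of 14 were lower in CD, the signed median was thus nearly as large as the absolute one. Groups did not overlap on 8 of 14 probe sets at day 7 (35% of the array), 0 at day 14 (11.4%), 9 between days in CD (44.8%) and 5 between days in NP (21.6%). The set was chosen with earlier results of these arrays known, so these shares describe it and are no test.

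**Figure D1:**
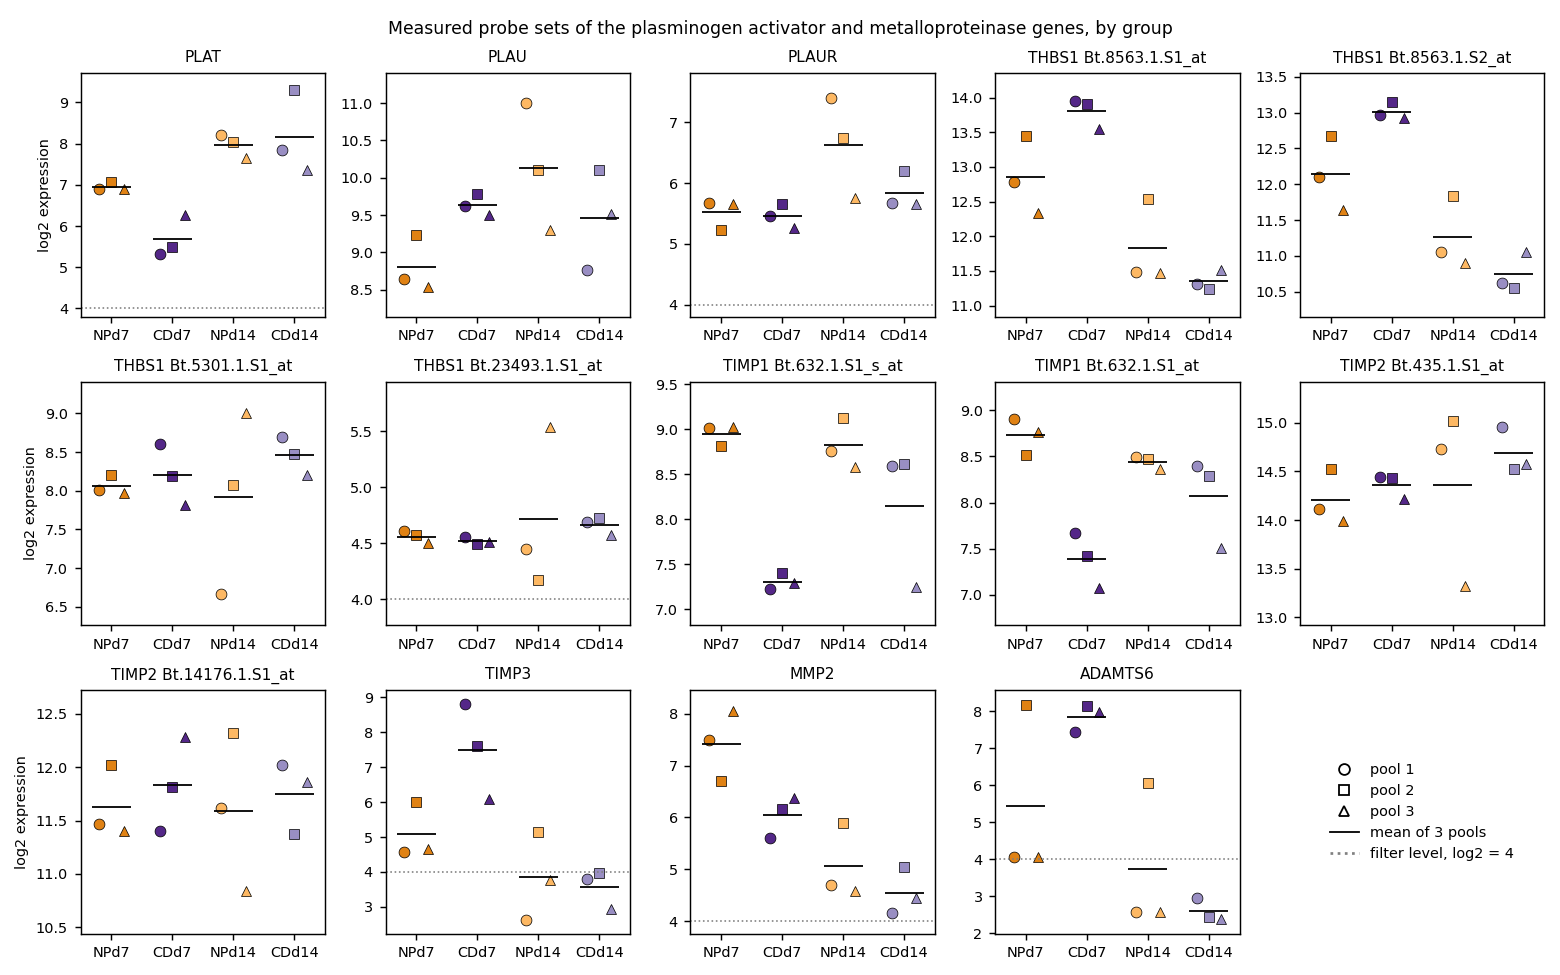
Log2 expression of the 14 measured probe sets on each array, by group, with a y axis of its own for each panel; points are pools, black lines the mean of 3 pools and dotted lines the filter level of 4. TIMP1 is low in all 3 CDd7 pools, ADAMTS6 is high in all 3 CDd7 pools and in pool 2 of NPd7, and TIMP3 and ADAMTS6 lie under 4 in all 3 CDd14 pools.

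PLAT encodes tissue-type plasminogen activator, known best for dissolving fibrin. Its log2 value was 6.89, 7.06 and 6.89 in NPd7 pools 1 to 3, 5.31, 5.50 and 6.27 in CDd7, 8.22, 8.04 and 7.66 in NPd14 and 7.84, 9.31 and 7.35 in CDd14. The CDd7 pools were the lowest of the 12 and every day 14 pool stood above every day 7 pool. From CDd7 to CDd14 PLAT rose from 5.70 ± 0.51 to 8.16 ± 1.02 (SD, n = 3), a log2 difference of 2.47 ± 0.44 (SE) or 5.53-fold (limma adjusted p = 0.00573). In NP the day difference was 1.03 (95% interval 0.06 to 2.0, limma adjusted p = 0.288) and did not pass. CDd7 was below NPd7 with no overlap, by a log2 difference of -1.25 (95% interval -2.22 to -0.28), which did not pass either (limma adjusted p = 0.0995). At day 14 the outcomes overlapped, at 0.19 (-0.78 to 1.16). The order of the group means was CDd14, NPd14, NPd7, CDd7, and the day 14 groups were the one pair of neighbours that overlapped.

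PLAU encodes urokinase, the activator of plasminogen on cell surfaces during tissue remodelling. It stood at 8.64, 9.23 and 8.54 in NPd7, 9.62, 9.78 and 9.50 in CDd7, 11, 10.10 and 9.30 in NPd14 and 8.77, 10.11 and 9.51 in CDd14. No comparison of PLAU passed. The largest difference was between days in NP, at 1.33 (95% interval 0.38 to 2.27, limma adjusted p = 0.187), where the groups were separated by 0.06 only. CDd7 lay above NPd7 on all pools, by 0.83 (-0.12 to 1.78, limma adjusted p = 0.214). In CD the day difference was -0.17 (-1.12 to 0.78) and at day 14 CD minus NP was -0.67 (-1.61 to 0.28), both with overlapping groups. By means the order was NPd14, CDd7, CDd14, NPd7, with the upper 3 overlapping one another.

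PLAUR, the urokinase receptor, was dim and even in all groups but NPd14. It was 5.67, 5.23 and 5.65 in NPd7, 5.46, 5.65 and 5.26 in CDd7, 7.41, 6.74 and 5.75 in NPd14 and 5.67, 6.20 and 5.66 in CDd14. NPd14 pools 1 and 2 were above all other arrays, and NPd14 pool 3 was within the range of CDd14. The difference between days in NP was 1.12 (95% interval 0.33 to 1.91, limma adjusted p = 0.183), and without NPd14 pool 3 it was 1.56 and passed (limma adjusted p = 0.0296). Without NPd14 pool 1 it was 0.73 (limma adjusted p = 0.419). CD minus NP at day 14 was -0.79 (-1.58 to -0.01, limma adjusted p = 0.675). At day 7 it was -0.06 (-0.85 to 0.73), and between days in CD it was 0.39 (-0.40 to 1.17).

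PLAU and PLAUR were high on the same arrays, NPd14 pool 1 first. Their Pearson r over the 12 arrays was 0.75, and 0.74 after group means were removed, given as a description of arrays that share groups and processing. The mean log2 value of 6 measured macrophage and neutrophil markers (CD14, AIF1, CSF1R, S100A8, S100A9 and S100A12) was 5.75 to 7.44 in NPd7, 4.56 to 6.03 in CDd7, 7.00 to 8.40 in NPd14 and 6.44 to 7.10 in CDd14. It too was highest in NPd14 pool 1, at 8.40. All 6 markers were higher at day 14 than at day 7 in NP and lower in CD than in NP at day 14, with 0 past the threshold in either comparison. Between days in CD 5 of 6 were higher (median 1.15) and 1 rose, against 11.6% of the array. In that comparison PLAU differed by -0.17 and PLAUR by 0.39. At day 7, 5 of 6 were lower in CD (median -0.73), where PLAU differed by 0.83. CD68, MPO and ITGAM lay under the filter. The part of these cells in the urokinase values was not tested, and in a bulk biopsy fewer cells of a type cannot be told apart from less RNA per cell.

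THBS1, thrombospondin 1, is a secreted matrix protein that restrains the growth of vessels and can activate latent TGF-beta. It has 4 measured probe sets, and they fall into 2 kinds. The bright pair, Bt.8563.1.S1_at and Bt.8563.1.S2_at, tracked each other closely, with a difference of 0.42 to 0.99 on every array. Bt.8563.1.S1_at stood at 12.78, 13.44 and 12.34 in NPd7, 13.95, 13.91 and 13.55 in CDd7, 11.48, 12.54 and 11.47 in NPd14 and 11.31, 11.24 and 11.52 in CDd14. Bt.8563.1.S2_at stood at 12.10, 12.67 and 11.64 in NPd7, 12.96, 13.15 and 12.92 in CDd7, 11.06, 11.84 and 10.90 in NPd14 and 10.62, 10.55 and 11.05 in CDd14. All 3 CDd7 pools were above every other array on both, and pool 2 was the highest of its group in NPd7 and in NPd14.

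From CDd7 to CDd14 both bright probe sets of THBS1 fell, with a log2 difference of -2.44 ± 0.33 for Bt.8563.1.S1_at (5.44-fold, limma adjusted p = 0.00256) and -2.27 ± 0.29 for Bt.8563.1.S2_at (4.82-fold, limma adjusted p = 0.00244, SE in both). The gap between the groups was 2.03 and 1.87. In NP the day differences were -1.02 and -0.87 with overlapping groups (limma adjusted p = 0.185 and 0.205). CDd7 was above NPd7 by 0.95 (95% interval 0.22 to 1.67) and 0.88 (0.22 to 1.53), which did not pass (limma adjusted p = 0.0960 and 0.0910). Without NPd7 pool 2 these were 1.24 and 1.14 and passed (limma adjusted p = 0.0380 and 0.0358). At day 14 CD minus NP was -0.47 and -0.53, with overlap.

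The other measured probe sets of THBS1 did not show this fall. Bt.5301.1.S1_at, which the annotation pairs with the RefSeq mRNA of THBS1, stood at 8.01, 8.21 and 7.97 in NPd7, 8.61, 8.19 and 7.81 in CDd7, 6.66, 8.07 and 9.01 in NPd14 and 8.70, 8.48 and 8.21 in CDd14. Its difference between days in CD was 0.26 (95% interval -0.79 to 1.31), an interval that leaves out the fall of the bright pair. Bt.23493.1.S1_at stayed between 4.17 and 5.54, near the filter, and was 0.14 (-0.47 to 0.76) between days in CD. On both, NPd14 pool 3 was the highest of the 12 arrays. The remaining probe sets, Bt.5301.2.S1_a_at and Bt.5301.2.A1_at, were not measured, at 2.17 to 2.22 and 1.56 to 1.61. The probe sets of THBS1 therefore disagree, and a statement on this gene rests on which of them is read.

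TIMP1 encodes a soluble inhibitor of most matrix metalloproteinases, and it was the member that set CDd7 apart from NPd7 most clearly. Bt.632.1.S1_s_at stood at 9.02, 8.81 and 9.03 in NPd7, 7.22, 7.40 and 7.29 in CDd7, 8.76, 9.13 and 8.58 in NPd14 and 8.59, 8.61 and 7.24 in CDd14. Bt.632.1.S1_at, which the annotation pairs with the same mRNA, stood at 8.91, 8.52 and 8.76 in NPd7, 7.67, 7.42 and 7.07 in CDd7, 8.49, 8.47 and 8.36 in NPd14 and 8.40, 8.29 and 7.51 in CDd14. On both probe sets the CDd7 pools were below all pools of NP, and of the day 14 pools CDd14 pool 3 alone was at their level.

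At day 7 TIMP1 fell in CD against NP, with a log2 difference of -1.65 ± 0.32 for Bt.632.1.S1_s_at (3.13-fold, limma adjusted p = 0.0336) and -1.34 ± 0.24 for Bt.632.1.S1_at (2.53-fold, limma adjusted p = 0.0285, SE in both). These calls lean on single arrays more than the values do. Without NPd7 pool 1, NPd7 pool 3 or CDd7 pool 2 the adjusted p was 0.127, 0.142 and 0.127 for the first probe set and 0.119, 0.131 and 0.104 for the second. For the first it was also 0.0562 without CDd7 pool 1, 0.0519 without NPd14 pool 1 and 0.0612 with no filter, and for the second 0.0926 with the 6 arrays of day 7 alone. Over all fits that left out 1 array the log2 fold change stayed between -1.72 and -1.60 for the first and between -1.48 and -1.18 for the second.

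TIMP1 in the other comparisons did not pass. From CDd7 to CDd14 it was 0.84 (95% interval 0.13 to 1.55, limma adjusted p = 0.0791) and 0.68 (0.16 to 1.20, limma adjusted p = 0.0598). Without CDd14 pool 3 these values were 1.29 and 0.96 and passed (limma adjusted p = 0.0101 and 0.0183). Between days in NP they were -0.13 (-0.84 to 0.58) and -0.29 (-0.81 to 0.24). At day 14 CD minus NP was -0.68 (-1.38 to 0.03) and -0.38 (-0.90 to 0.15). Both NP groups thus lay at 8.36 or above on every array, and CDd7 at 7.67 or below.

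TIMP2 both inhibits metalloproteinases and takes part in the activation of pro-MMP2 at the cell surface. It was bright in all groups and passed in 0 of the 5 comparisons by limma, with 0 at an unadjusted p under 0.05. Bt.435.1.S1_at had means of 14.21 ± 0.28 and 14.36 ± 0.12 (SD, n = 3) in NP and CD at day 7 and of 14.36 ± 0.91 and 14.69 ± 0.24 at day 14. Bt.14176.1.S1_at had 11.63 ± 0.34, 11.83 ± 0.44, 11.59 ± 0.74 and 11.75 ± 0.34 in the same order. NPd14 pool 3 was the lowest array on both, at 13.32 and 10.84, and NPd14 pool 2 the highest, at 15.02 and 12.32. In the 4 comparisons between groups the log2 fold changes of Bt.435.1.S1_at were between 0.15 and 0.33, with 95% intervals reaching from -0.67 to 1.15. Differences within those intervals are not excluded by these arrays.

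TIMP3 is bound to the matrix and inhibits ADAM and ADAMTS proteases as well as MMPs. It stood at 4.58, 6.0 and 4.67 in NPd7, 8.80, 7.60 and 6.09 in CDd7, 2.63, 5.13 and 3.78 in NPd14 and 3.80, 3.98 and 2.93 in CDd14. CDd7 held the 3 highest values, and all CDd14 pools were under the filter. From CDd7 to CDd14 TIMP3 fell by 3.93 ± 0.76 on the log2 scale (SE, limma adjusted p = 0.00765), 15.2-fold. Since CDd14 lies near background, the fold depends on the floor of the normalization, and the CDd7 mean was 11.3-fold above the filter level. CDd7 was above NPd7 by 2.41 (95% interval 0.72 to 4.11, limma adjusted p = 0.0800), with a gap of 0.09 between the groups. Without CDd7 pool 3 this was 3.12 and passed (limma adjusted p = 0.0435), and without CDd7 pool 1 it was 1.76 and did not. In NP the day difference was -1.24 (-2.93 to 0.46) and at day 14 the outcomes differed by -0.28 (-1.97 to 1.42), both with overlap.

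MMP2, gelatinase A, cuts type IV collagen of basement membranes and denatured collagens. It stood at 7.50, 6.71 and 8.05 in NPd7, 5.61, 6.16 and 6.38 in CDd7, 4.69, 5.90 and 4.59 in NPd14 and 4.16, 5.05 and 4.44 in CDd14. NPd7 was the highest group with no overlap, and in either outcome the day 14 pools were all below the day 7 pools. In CD it fell from 6.05 ± 0.40 to 4.55 ± 0.46 (SD, n = 3), 2.83-fold or -1.50 ± 0.43 in log2 (SE; limma adjusted p = 0.0315). That call ended without CDd7 pool 2 or 3 (limma adjusted p = 0.0983 and 0.0763), without CDd14 pool 1 or 3 (0.0907 and 0.0881) and with no filter (0.0712). In NP the difference was -2.36 (95% interval -3.31 to -1.40), or 5.13-fold, and did not pass (limma adjusted p = 0.0614, and 0.0746 with the pool number as a replicate block). Without NPd14 pool 2 it was -2.78 and passed (limma adjusted p = 0.0200). The day effect in CD minus that in NP was 0.86 (-0.49 to 2.21, limma adjusted p = 0.512).

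MMP2 and TIMP1 were both lower in CDd7 than in NPd7, and so were the stromal fibroblast markers. For MMP2 the difference was -1.37 (95% interval -2.33 to -0.42, limma adjusted p = 0.0786), and it passed without NPd7 pool 2 (-1.73, limma adjusted p = 0.0362) or NPd14 pool 2 (-1.37, limma adjusted p = 0.0498). All 9 measured stromal markers were lower in CDd7 (median -2.95), of which 5 fell. Over the whole array 1.94% fell in this comparison. Their mean log2 value was 9.34 to 10.19 in NPd7, 6.82 to 7.85 in CDd7, 7.84 to 9.52 in NPd14 and 7.33 to 8.08 in CDd14. COL1A1 and PDGFRB were under the filter. T and natural killer cell markers were also lower in CDd7, on 7 of 7, with 3 fallen, while 6 of 9 epithelial markers were lower by a median of -0.16 with 0 past the threshold. The part of the stromal markers in the TIMP1 and MMP2 differences was not tested. Between days in NP the stromal median was -1.91, but 4 of 9 markers were higher and 5 lower, with 0 past the threshold. MMP2 differed there by -2.36 and TIMP1 by -0.13 and -0.29. Between days in CD the stromal median was 0.33, with 6 of 9 higher, where MMP2 differed by -1.50 and TIMP1 by 0.84 and 0.68. In CDd14 pools 1 to 3 the stromal mean was 7.33, 8.03 and 8.08, and TIMP1 on Bt.632.1.S1_s_at was 8.59, 8.61 and 7.24.

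**Figure D2:**
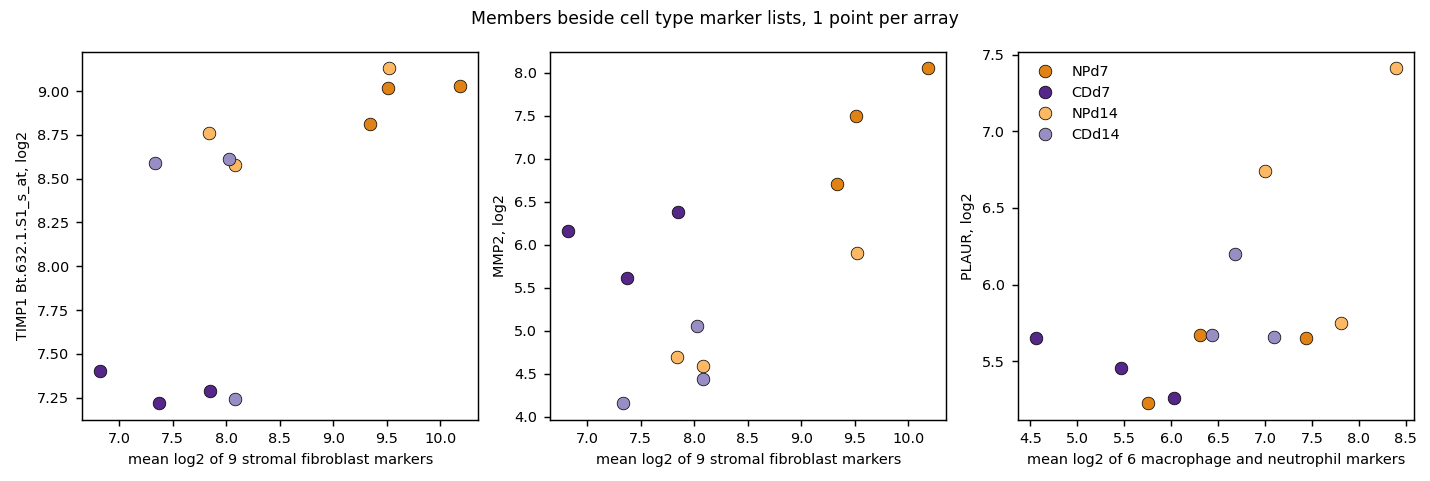
TIMP1 (Bt.632.1.S1_s_at), MMP2 and PLAUR on the y axes (log2) against the mean log2 value of a marker list on the x axes, 1 point per array, coloured by group. NPd7 lies at the upper right for TIMP1 and MMP2, CDd7 at the lower left for TIMP1, and NPd14 pool 1 at the upper right for PLAUR. In the TIMP1 panel NPd14 pool 2 is also at the upper right, and CDd14 pool 3 is as low as CDd7.

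ADAMTS6 is a secreted metalloprotease with thrombospondin motifs. It ranged from 2.38 to 8.17, with an SD over the 12 arrays of 2.47, the largest of the 14 probe sets. The values were 4.06, 8.17 and 4.06 in NPd7, 7.45, 8.15 and 7.97 in CDd7, 2.57, 6.05 and 2.56 in NPd14 and 2.95, 2.43 and 2.38 in CDd14. CDd7 was uniformly high and CDd14 uniformly under the filter, while pool 2 stood far above the other pools of NP on both days. From CDd7 to CDd14 ADAMTS6 fell by 5.27 ± 1.14 on the log2 scale (SE, limma adjusted p = 0.0114), 38.6-fold, and the CDd7 mean was 14.5-fold above the filter level. In NP the day difference was -1.70 (95% interval -4.25 to 0.85, limma adjusted p = 0.491), and it ranged from -2.86 without NPd14 pool 2 to -0.33 without NPd7 pool 2. CDd7 minus NPd7 was 2.43 (-0.12 to 4.98, limma adjusted p = 0.182), and without NPd7 pool 2 it was 3.80 and passed (limma adjusted p = 0.0310). Without NPd7 pool 1 or pool 3 it was 1.74 (limma adjusted p up to 0.472). At day 14 CD minus NP was -1.14 (-3.69 to 1.40), and without NPd14 pool 2 it was 0.02.

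**Figure D3:**
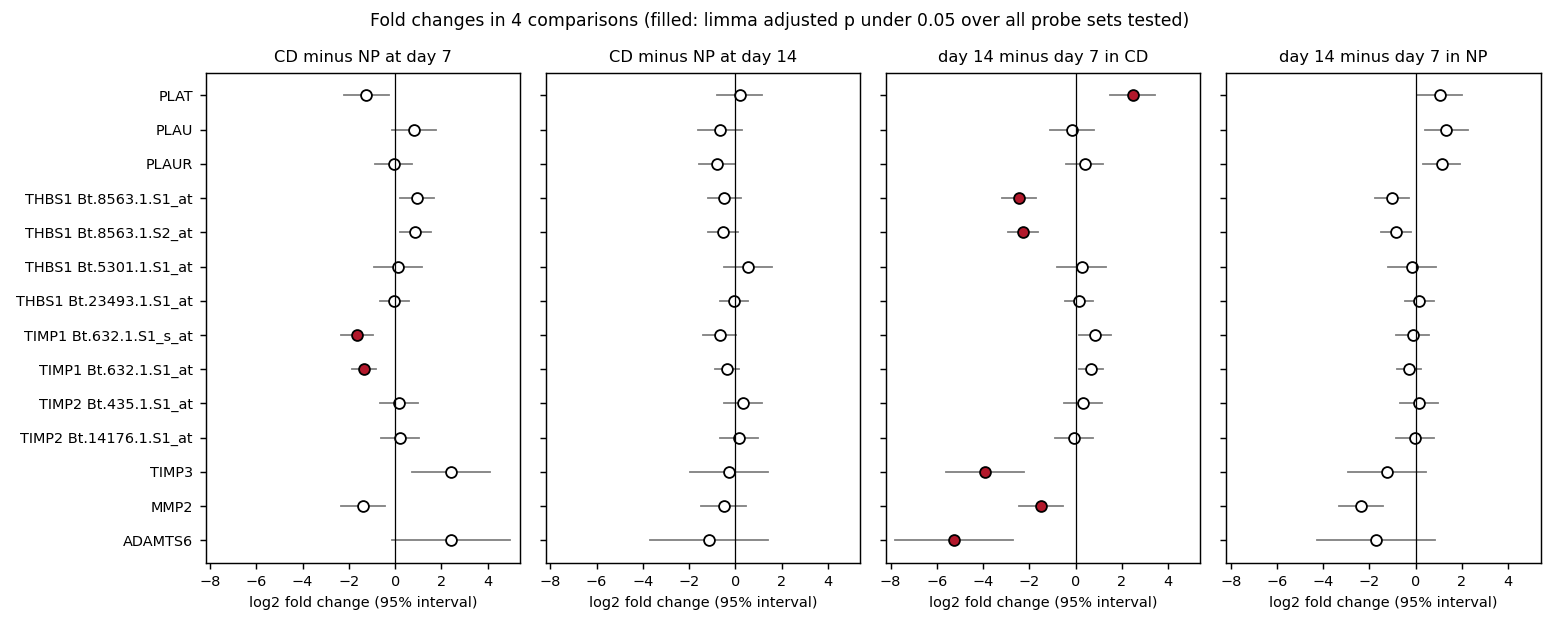
Log2 fold change of each measured probe set (points, with 95% intervals) in 4 comparisons; filled points have a limma adjusted p under 0.05 over all probe sets tested. Filled points are TIMP1 at day 7 and PLAT, the bright THBS1 pair, TIMP3, MMP2 and ADAMTS6 between days in CD.

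THBS1 (bright pair), TIMP3 and ADAMTS6 shared an order of arrays: CDd7 high, pool 2 above the other pools within NPd7 and within NPd14, and CDd14 low. Over the 12 arrays the Pearson r of Bt.8563.1.S1_at was 0.95 with ADAMTS6 and 0.92 with TIMP3, and that of TIMP3 with ADAMTS6 was 0.88. With group means removed, these r were 0.88, 0.70 and 0.59. For Bt.8563.1.S2_at the r were 0.94 with ADAMTS6 and 0.87 with TIMP3, and 0.85 and 0.46 with group means removed. PLAT ran the other way between groups only, with r of -0.85 against Bt.8563.1.S1_at and -0.80 against TIMP3, but -0.15 and -0.10 with group means removed. These values describe arrays in 4 groups and carry no test. From day 7 to day 14 in NP, pools of the same number were lower in 3 of 3 pairs for Bt.8563.1.S1_at (log2 differences of -1.30, -0.90 and -0.87), TIMP3 (-1.95, -0.87 and -0.89) and ADAMTS6 (-1.49, -2.12 and -1.50). Bt.8563.1.S2_at, MMP2 and TIMP1 on Bt.632.1.S1_at were also lower in 3 of 3 pairs, and PLAT, PLAU and PLAUR were higher in 3 of 3. Some of these differences were small, at -0.05 for pool 2 of TIMP1 on Bt.632.1.S1_at and 0.1 for pool 3 of PLAUR. On Bt.632.1.S1_s_at TIMP1 was lower in 2 of 3 pairs (-0.26, 0.32 and -0.45). The labels do not say that pools of the same number are matched. With the pool number as a replicate block within the 6 NP arrays, Bt.8563.1.S1_at, TIMP3 and ADAMTS6 had a limma adjusted p of 0.113, 0.143 and 0.113. None of these passed.

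CLDN5, the one measured of 7 endothelial markers, followed the same order of arrays. It stood at 3.21, 4.75 and 4.08 in NPd7, 7.21, 5.78 and 6.17 in CDd7, 2.04, 3.29 and 2.07 in NPd14 and 2.05, 2.03 and 1.66 in CDd14. By limma it rose in CD against NP at day 7 (2.37 in log2) and fell between days in CD (-4.48), while PECAM1, CDH5, VWF, KDR, TEK and ENG were under the filter. CLDN5 was above 4 only in the CDd7 pools and in NPd7 pools 2 and 3, so without CDd7 it would not have met the filter. Its calls therefore describe it and are no support. The size of its fall depends on CDd14 values near background. Between days in CD the other lists were mostly higher at day 14: 9 of 9 epithelial markers (2 rose, median 0.38), 6 of 9 stromal (1 rose, 0.33), 5 of 6 macrophage and neutrophil (1 rose, 1.15) and 7 of 7 T and natural killer cell markers (1 rose, 0.67). Over the whole array 11.6% rose in this comparison. The part of any of these cells in the day changes of THBS1, TIMP3, ADAMTS6, MMP2 and PLAT was not tested.

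Between days in CD the calls of PLAT, the bright THBS1 pair, TIMP3 and ADAMTS6 held under all 18 other settings, with limma adjusted p up to 0.0308, 0.0134, 0.0134, 0.0322 and 0.0454.

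**Figure D4:**
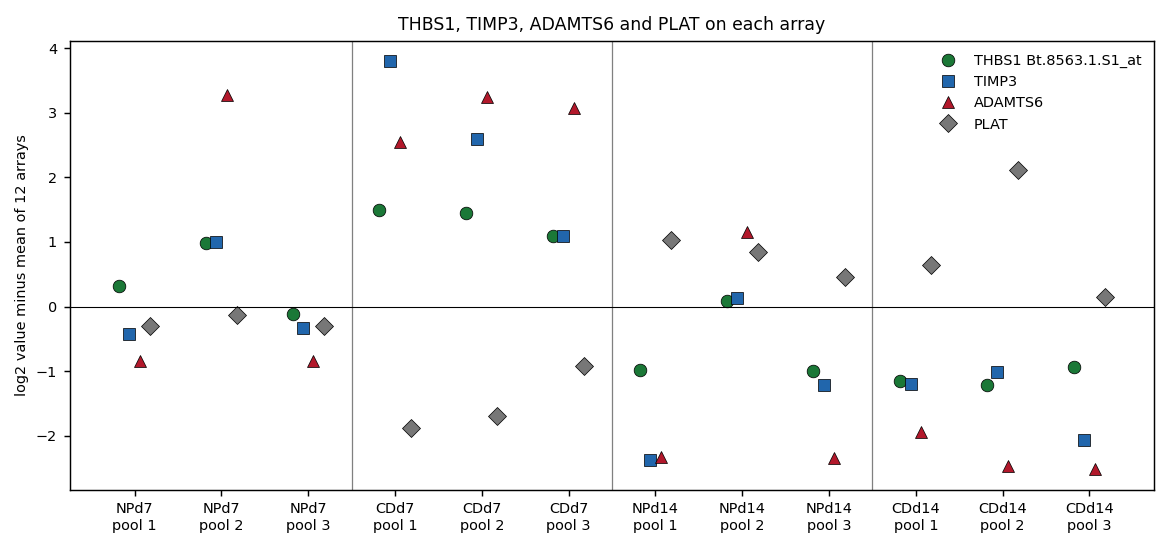
Log2 value minus the mean of the 12 arrays for THBS1 (Bt.8563.1.S1_at), TIMP3, ADAMTS6 and PLAT on each array, ordered by group and pool. The first 3 are above 0 in all CDd7 pools and below 0 in all CDd14 pools, and ADAMTS6 stands out in pool 2 of NPd7 and NPd14; PLAT is below 0 in CDd7 and above 0 at day 14.

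No member passed the test of whether its day effect differed between CD and NP (limma, 0 of 14, with 6 at an unadjusted p under 0.05, where the array had 0% and 14.1%). The smallest adjusted p was 0.263, for Bt.8563.1.S2_at of THBS1, whose day effect in CD minus that in NP was -1.40 (95% interval -2.33 to -0.48). For PLAT the difference was 1.44 (0.07 to 2.81), for TIMP3 -2.69 (-5.08 to -0.29), for PLAU -1.50 (-2.84 to -0.16) and for ADAMTS6 -3.57 (-7.17 to 0.03), with limma adjusted p of 0.338, 0.323, 0.325 and 0.351. For TIMP1 it was 0.97 (0.23 to 1.71) on Bt.632.1.S1_at and 0.97 (-0.03 to 1.97) on Bt.632.1.S1_s_at, with limma adjusted p of 0.297 and 0.359. That genes passed between days in CD and not in NP is therefore not shown to be a difference between the outcomes.

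The genes whose values ran most like the members over the 12 arrays were taken as the 3 with the highest Pearson r, as a description. For Bt.8563.1.S1_at of THBS1 these were MRFAP1L1 (0.991), SAT1 (0.990) and NUDT5 (0.988), and for Bt.8563.1.S2_at SAT1 (0.986), PEPD and MRFAP1L1 (0.983 each). ADAMTS6 was most like TNFRSF6B (0.983), USP12 (0.975) and SAT1 (0.972), and TIMP3 most like GMPPB (0.977), TOMM34 (0.975) and MOGAT1 (0.973). PLAUR was most like CXCR1 (0.963), SHOC2 (0.944) and SDS (0.938), and PLAU like CXCR1 (0.820), IL1B (0.811) and TRIB1 (0.810). For PLAT they were TAX1BP3 (0.937), LOC282255 (0.935) and FOXP4 (0.933), and for MMP2 NADSYN1 (0.950), AXIN2 (0.935) and ATP6V0D1 (0.920). TIMP1 was most like BECN1 (0.889) on Bt.632.1.S1_s_at and TMEM42 (0.953) on Bt.632.1.S1_at, with TMEM42 second on the former (0.879). TIMP2 on Bt.435.1.S1_at was most like MMP23 (0.974), a membrane-linked metalloproteinase, which like TIMP2 was lowest in NPd14 pool 3, at 5.68, and highest in NPd14 pool 2, at 10.05.

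Other genes of these systems were read from 5 lists of 91 genes: plasminogen activation, MMPs, ADAM and ADAMTS proteases, metalloproteinase inhibitors and regulators, and thrombospondins with their receptors. Of these, 51 are on the array under that symbol and 24 were measured, 15 of them outside the 9 members. Few MMPs were measured: of 11 on the array, MMP2 and MMP23 were, while MMP1, MMP3, MMP9, MMP13 and MMP14 were under the filter, as was PLG, plasminogen itself. Of the 15, limma called 1 at day 7 (0 up, 1 down, 3.74% of the array), 0 at day 14 (0.0223%), 5 between days in CD (2 up, 3 down, 24%) and 0 between days in NP (0.327%). At an unadjusted p under 0.05 there were 5, 0, 7 and 3 of the 15 in the same order. The array had 30%, 7.38%, 39.3% and 16.3%. The medians were 0.15, -0.04, 0.10 and 0.00, near those of the array at -0.03, 0.01, 0.05 and -0.01.

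Between days in CD, S100A10, which with annexin A2 binds plasminogen at the cell surface, fell 2.22-fold (limma adjusted p = 0.00264). BSG, or basigin, an inducer of metalloproteinases, fell 1.91-fold (limma adjusted p = 0.00646). ADAM10, a protease that sheds membrane proteins, fell 2.10-fold on its brightest probe set (limma adjusted p = 0.00454) and 4.11-fold and 4.27-fold on its other measured ones. CD36, a receptor of thrombospondin 1 and of fatty acids, rose 3.92-fold (limma adjusted p = 0.0273), from 3.43, 4.77 and 6.14 in CDd7 to 6.16, 7.06 and 7.05 in CDd14. ADAM9 rose 1.54-fold (limma adjusted p = 0.0238), and its other probe set, with CD means of 3.02 and 3.38 under the filter level, differed by 0.36 in log2 (limma adjusted p = 0.305). The call of CD36 ended without CDd7 pool 1 (1.30 in log2 against 1.97, limma adjusted p = 0.0561), CDd7 pool 2 or CDd14 pool 2 or 3 (up to 0.0860), with no filter (0.0639) and with the CD arrays alone (0.0927). That of ADAM9 ended without CDd7 pool 2 or 3 or CDd14 pool 1 or 2 (limma adjusted p up to 0.0692) and with the CD arrays alone (0.0684). At day 7 PCOLCE, which enhances procollagen processing, fell 7.01-fold in CD (limma adjusted p = 0.0287). It stood at 7.40, 6.19 and 8.28 in NPd7 and at 4.56, 3.72 and 5.16 in CDd7. The CDd7 values lay near the filter level of 4, so the fold may depend on the floor of the normalization. The call of PCOLCE ended without NPd7 pool 1 or 3, CDd7 pool 2 or CDd14 pool 3 (0.116, 0.111, 0.114 and 0.0557). It also ended with no filter (0.0554) and with the arrays of day 7 alone (0.0938). SERPINE2, an inhibitor of plasminogen activators and thrombin, had means of 13.19 ± 0.33 and 12.55 ± 0.32 (SD, n = 3) in NP and CD at day 7 and of 13.39 ± 0.36 and 13.25 ± 0.04 at day 14. It passed in no comparison.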

How the data were processed

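The authors deposited log2 values of Affymetrix probe sets for 12 arrays, made with GCRMA per the submitters' processing notes, which also name limma and give no versions. GCRMA sets dim probe sets near a common low level, on which their folds depend. After 112 control probe sets were left out, the filter (log2 above 4 on at least 3 arrays) kept 13449. One model of 4 group means over all 12 arrays was fitted with limma 3.58.1 in R 4.3.3 (8 residual and 2.13 prior degrees of freedom), with contrasts, eBayes and Benjamini-Hochberg adjustment over all kept probe sets, two-sided at 0.05. The code was tested on simulated data. Genes in lists stand by their brightest kept probe set. Named are all members, called list genes (up to 4 per list and comparison) and the genes most correlated with each member. SERPINE2, CLDN5, OXTR and genes under the filter were named after their values were seen. Members and lists were chosen with earlier results of these data known.

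Gene names come from GEO's platform annotation, and all 9 member symbols matched RefSeq by gene identifier. No coordinates or sequences are given, since none were in the sources used here. In CDd14 a title naming pool 2 but replicate 3 was read as replicate 3. Same-numbered NP pools of both days deviated together from their group means (r = 0.161, 0.619 and 0.507), and the other comparisons did not meet this. The printed NP values come from the fit without a block; the pool number as a block was an alternative and changed no call there. The number of arrays limits the precision.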

Additional observations from a re-analysis of the deposited data

How the results depend on the processing

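The alternatives were no filter, a filter at log2 above 6, quantile normalization, eBayes with trend and robust, the pool number as a replicate block, the arrays of the compared groups alone, each array left out, and, chosen after seeing the data, a block within the 6 NP arrays. Of 1363 values under an alternative, 1285 kept direction and side of the threshold, 32 lost a call, 11 gained one and 35, all of them of differences without a call, changed sign.

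Members past the threshold at day 7 were 1 of 17 with no filter, 1 with the arrays of day 7 alone and 0 to 6 with each array left out. They were 0 without NPd7 pool 1 or 3 or CDd7 pool 2. They were 1 without CDd7 pool 1 or NPd14 pool 1, and 6 without NPd7 pool 2. The array counts of these fits were 0, 0 and 4, then 403 and 196, and then 1676 of 13449, against 503 in the main fit. The day 7 calls of the bright THBS1 pair, MMP2 and ADAMTS6 without NPd7 pool 2 come from that last fit. Between days in NP the members past the threshold were 0 to 1 with each array left out: MMP2 without NPd14 pool 2 and PLAUR without NPd14 pool 3. Those fits had array counts of 155 and 172, against 44 in the main fit. With the replicate block the members past the threshold were 2 at day 7, 0 at day 14, 7 between days in CD (TIMP1 Bt.632.1.S1_at added, adjusted p = 0.0320) and 0 between days in NP, also within the 6 NP arrays, where MMP2 had an adjusted p = 0.151. Over the array the block moved the count from 44 to 21 between days in NP and from 503 to 1455 at day 7. The count moved from 3231 to 3676 between days in CD and from 3 to 0 at day 14. At day 7 that count was 161 with no filter, 3 with the arrays of day 7 alone and 0 to 1676 with each array left out; between days in NP it was 17 with trend and robust eBayes, 9 with the stricter filter and 1 to 172 with each array left out. Between days in CD it was 1320 to 3732 with each array left out. The replicate block changed no other call of a member.

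Under quantile normalization the sign changed for THBS1 Bt.23493.1.S1_at at day 7 (0.00) and TIMP2 Bt.14176.1.S1_at in the difference of the day effects (0.01). With each array left out, log2 differences that changed sign ranged as follows. CD minus NP at day 7 was -0.20 to 0.04 for PLAUR, -0.07 to 0.33 for THBS1 Bt.5301.1.S1_at and -0.03 to 0.41 for TIMP2 Bt.14176.1.S1_at. CD minus NP at day 14 was -0.38 to 0.60 for PLAT, -1.72 to 0.02 for ADAMTS6, -0.88 to 0.36 for TIMP3, -0.33 to 0.35 for THBS1 Bt.23493.1.S1_at and -0.08 to 1.10 for Bt.5301.1.S1_at. For TIMP2 it was -0.19 to 0.66 on Bt.435.1.S1_at and -0.22 to 0.53 on Bt.14176.1.S1_at. Between days in CD it was -0.50 to 0.17 for PLAU and -0.30 to 0.15 for TIMP2 Bt.14176.1.S1_at. Between days in NP it was -0.25 to 0.43 for THBS1 Bt.23493.1.S1_at, -0.70 to 0.47 for Bt.5301.1.S1_at, -0.19 to 0.67 for TIMP2 Bt.435.1.S1_at and -0.41 to 0.34 for Bt.14176.1.S1_at. The difference of the day effects was -0.29 to 0.39 for THBS1 Bt.23493.1.S1_at, -0.21 to 0.96 for Bt.5301.1.S1_at, -0.35 to 0.51 for TIMP2 Bt.435.1.S1_at and -0.42 to 0.33 for Bt.14176.1.S1_at. The cause was not tested.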
